A study of Mus musculus with 24 samples.

Results

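Pancreatic stellate cells (PSC) in standard mono-culture are described here from 6 libraries, 3 of cells kept for 24 h and 3 of cells kept for 72 h, chosen by their labels from 24 libraries in all and paired by the replicate number of their labels. PSC were isolated from pancreata of wild-type (WT) C57BL/6J mice aged 7 to 10 weeks, with 4 to 10 pancreata of both sexes pooled per isolation, and were used at passage 1 to 2. They were seeded on a membrane insert with 1 µm pores in the layout of the standard co-culture, in which KPC cells, a murine pancreatic cancer line, would grow at the bottom of the well, but these controls held no KPC cells. Time was counted from a change from low glucose DMEM with F12 and 16% serum to advanced DMEM/F-12 with 10% serum, and the medium was not renewed afterwards. The other 18 libraries came from standard co-culture and from the inverse model, in which KPC cells sit on the underside of the membrane, with mono-cultured controls of its own. The comparison asks what PSC do between 24 h and 72 h when no cancer cells are present, which is the background of any change over time in co-culture. Whether a replicate number stands for a shared isolation is not stated in the sources used here, so the p-values measure the spread between these libraries only.

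PSC are the resident mesenchymal cells of the exocrine pancreas. In the healthy gland they store vitamin A in lipid droplets, and in culture on a stiff surface or in injury they become activated, which means that they turn into contractile, matrix-secreting, dividing myofibroblasts. Activation brings α-smooth muscle actin (Acta2), fibrillar collagen and cell division. Fibroblasts that stop dividing lower their mitotic transcripts and their translation machinery, and inflammatory fibroblasts secrete chemokines and complement proteins.

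Values are FPKM, the fragments counted for a gene scaled by its length and by the total fragments of the library, so levels are per length and relative to each library. The 6 libraries held between 17567252 and 22742283 counted fragments, and between 12277 and 13132 genes had an FPKM above 1. Of the fibroblast and stellate cell markers, vimentin (Vim) had 706 to 1994 FPKM and desmin (Des) 37.8 to 71.3 FPKM in the 6 libraries. The collagen gene Col1a1 had 5754 to 9305 FPKM. Gfap and Lrat, which mark quiescent stellate cells, were listed at 0 in 4 and 5 of the 6 libraries. They stayed at or below 0.117 FPKM in the rest. For protein, the study reports positive GFAP staining of its cultured PSC. Of the markers of other cell types, Epcam of epithelium, Cd3e of T cells and Sox10 of Schwann cells were listed at 0 in all 6 libraries, and the endothelial Pecam1 and Cdh5 did not exceed 0.244 FPKM. Other members of these lists were present. The 14 endothelial markers summed to between 177 and 244 FPKM per library. The 10 Schwann cell and neural markers summed to between 25.3 and 40.7 FPKM, and the 20 epithelial markers to between 11.4 and 24.5 FPKM. Macrophage markers were present and differed greatly between replicates, as described below.

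The replicate number separated the libraries far more than the time did. Of the total variance of log2(FPKM + 0.5) over 12963 genes, 77.8% lay between replicate numbers, 8.62% between the time points and 13.6% in the rest. The corresponding shares were 26.7% and 48.2% in the inverse controls, for replicate number and time. Replicate 1 stood apart from replicates 2 and 3 on the first principal component, which held 72.2% of the variance. Pearson correlations over genes were between 0.971 and 0.977 within a pair, and between 0.866 and 0.944 for replicate 1 against the others. Replicates 2 and 3 correlated with each other at 0.956 to 0.976, which overlaps the range within a pair, so the separation by replicate number was mainly that of replicate 1.

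**Figure D1:**
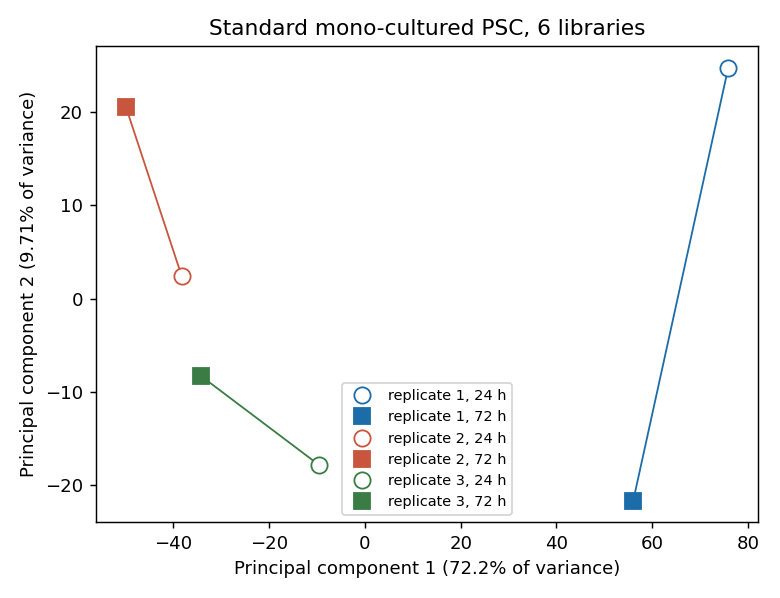
Principal components 1 and 2 of log2(FPKM + 0.5) in the 6 libraries of standard mono-cultured PSC, computed over 12963 genes, with open circles for 24 h, filled squares for 72 h and a line joining each pair. The replicate 1 libraries lie at 75.9 and 56.0 on component 1 and the other 4 libraries between -49.9 and -9.49, and within each pair the 72 h library has the lower value, a shift smaller than the distance of replicate 1 from the others.

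What set replicate 1 apart was visible in named gene groups. The 20 contractile genes summed to 21596 FPKM at 24 h and 20644 FPKM at 72 h in replicate 1, but to 5335 and 3974 FPKM in replicate 2 and to 7886 and 5791 FPKM in replicate 3. The 36 mitosis genes summed to 1336 and 980.2 FPKM in replicate 1, to 203.6 and 165.3 FPKM in replicate 2 and to 444.4 and 152.4 FPKM in replicate 3. Replicate 1 was thus the most contractile and the most mitotic of the 3 at both times. The 20 macrophage markers ran the other way, with 58.1 and 47.7 FPKM in replicate 1, 697.7 and 1760 FPKM in replicate 2 and 91.2 and 235.8 FPKM in replicate 3. Every result below is therefore a difference within pairs, fitted with a term for each replicate number.

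**Figure D2:**
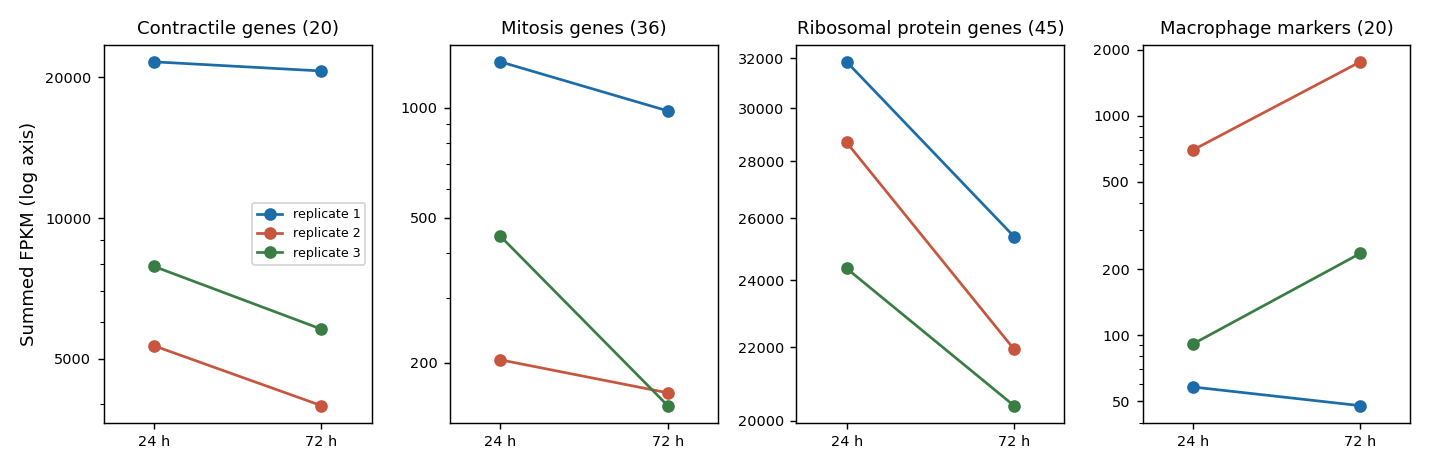
Summed FPKM (log axes) of the listed contractile, mitosis, cytosolic ribosomal protein and macrophage marker genes at 24 h and 72 h, 1 line per replicate, with the number of genes of each list in brackets. The ribosomal protein genes are lower at 72 h in all 3 pairs, and the macrophage markers are higher in replicates 2 and 3 but lower in replicate 1.

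No gene passed the test of the time effect. At a Benjamini-Hochberg adjusted p under 0.05 in limma's moderated test, 0 of 12963 genes (0%) were called, the smallest adjusted p was 0.214, and limma's voom on the recovered fragments called 0 of 12952 as well. At an unadjusted p under 0.05 there were 1155 genes, 580 higher at 72 h (4.47% of those tested) and 575 lower (4.44%), and 1159 by voom. The median log2 fold change over all genes was 0.01 and the median standard error (SE) 0.16. Higher at 72 h in 3 of 3 pairs were 2037 genes (15.7%), and lower in 3 of 3 pairs were 1894 genes (14.6%). These shares are the background against which the counts of the gene groups below are to be read, and all fold changes below are 72 h against 24 h of log2(FPKM + 0.5), a scale that makes changes of low genes look smaller. None of the genes named below passed the test in this comparison.

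The pairs differed in how far they moved and in which genes moved. Over genes, the log2 fold changes correlated at -0.07 between pairs 1 and 2, at 0.12 between pairs 1 and 3 and at 0.24 between pairs 2 and 3. The SD of the log2 fold change over genes was 0.53 in pair 1, 0.43 in pair 2 and 0.44 in pair 3. At least 2-fold higher at 72 h were 487 genes in pair 1, 267 in pair 2 and 252 in pair 3, and at least 2-fold lower were 221, 194 and 308. Without replicate 1 the test called 68 genes, 44 higher and 24 lower at 72 h, of which 30 had the same direction in pair 1. These calls rest on replicates 2 and 3 alone, and 8 of the 44 higher at 72 h, among them C1qa, Lyz2 and Cd68, belong to the list of 20 macrophage markers, while 0.351% of the 12550 genes tested were called higher. Without replicate 2 and without replicate 3 no gene was called, with 970 and 513 genes at an unadjusted p under 0.05.

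The genes with the smallest p values that were higher at 72 h in all pairs included cell surface and signalling genes of fibroblasts. Ly6c1, a surface protein that is used to mark inflammatory fibroblasts and is also carried by endothelial and myeloid cells (chr15:75044018-75048830, GRCm38), had 8.94, 22.7 and 21.6 FPKM at 24 h and 22.5, 55.3 and 42.4 FPKM at 72 h in replicates 1, 2 and 3. It was higher at 72 h in every pair, with a log2 fold change of 1.17 ± 0.12 (SE) and an adjusted p of 0.214. Rgs2, which switches off signalling through Gq-coupled receptors (chr1:143999338-144004161), had 0.946, 37.6 and 15.5 FPKM at 24 h and 3.85, 80.0 and 73.3 FPKM at 72 h. Its log2 fold change was 1.62 ± 0.21 (SE), with an adjusted p of 0.226, and the 72 h value of replicate 1 stayed under every 24 h value of the other replicates. Ackr4, a receptor that scavenges chemokines (chr9:104084157-104126933), had 2.10, 6.60 and 4.10 FPKM at 24 h and 5.09, 15.4 and 12.1 FPKM at 72 h. Scara5, a ferritin receptor that marks adventitial fibroblasts (chr14:65666403-65764826), had 1.77, 34.8 and 39.0 FPKM at 24 h and 7.47, 64.7 and 98.4 FPKM at 72 h. Both were higher in each pair, with log2 fold changes of 1.24 ± 0.17 and 1.34 ± 0.18 (SE).

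Mir23a, a microRNA gene of 75 bases on chromosome 8, also met the rule for named genes, with 1.76, 4.55 and 2.23 FPKM at 24 h and 7.16, 10.9 and 11.3 FPKM at 72 h. Its values rest on 3 to 16 fragments per library, and polyA RNA measures its precursor and not the mature microRNA. The other 9 leading genes rest on at least 27 fragments in every library, which makes the ratio within replicate 1 of Rgs2 the least precise of them.

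The leading genes that were lower at 72 h were likewise chosen as lower in all pairs. With the exception of Ptprn, they were members of a list of targets of the transcription factor ATF4. Ptprn, a protein of dense-core secretory vesicles (chr1:75247027-75264502), had 143, 57.2 and 60.0 FPKM at 24 h and 77.2, 32.0 and 32.7 FPKM at 72 h. The step was nearly the same in the 3 pairs, with log2 fold changes of -0.89, -0.83 and -0.87, and the fitted value was -0.86 ± 0.10 (SE) with an adjusted p of 0.214. Phgdh, the entry enzyme of serine synthesis (chr3:98313170-98339990), had 320.4, 72.1 and 96.7 FPKM at 24 h and 176, 43.0 and 58.8 FPKM at 72 h. It was lower in every pair, by -0.77 ± 0.10 (SE) on the log2 scale, and the libraries of the 2 times overlapped because replicate 1 was far above the others. Slc7a5, the large neutral amino acid transporter (chr8:121881150-121907694), had 217, 63.5 and 82.8 FPKM at 24 h and 152, 37.9 and 47.3 FPKM at 72 h, a log2 fold change of -0.68 ± 0.10 (SE). Asns, asparagine synthetase (chr6:7675169-7693254), had 236, 99.6 and 132 FPKM at 24 h and 168, 61.9 and 68.8 FPKM at 72 h, a log2 fold change of -0.70 ± 0.12 (SE). Both were lower at 72 h in every pair, and in both replicate 1 was the highest at either time. Trib3, a pseudokinase that restrains the ATF4 response (chr2:152337422-152344032), had 62.5, 70.1 and 59.0 FPKM at 24 h and 45.7, 30.4 and 32.4 FPKM at 72 h, a log2 fold change of -0.83 ± 0.15 (SE). Of the 5 leading genes that were lower, only Trib3 had 24 h values that were all above all 72 h values.

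**Figure D3:**
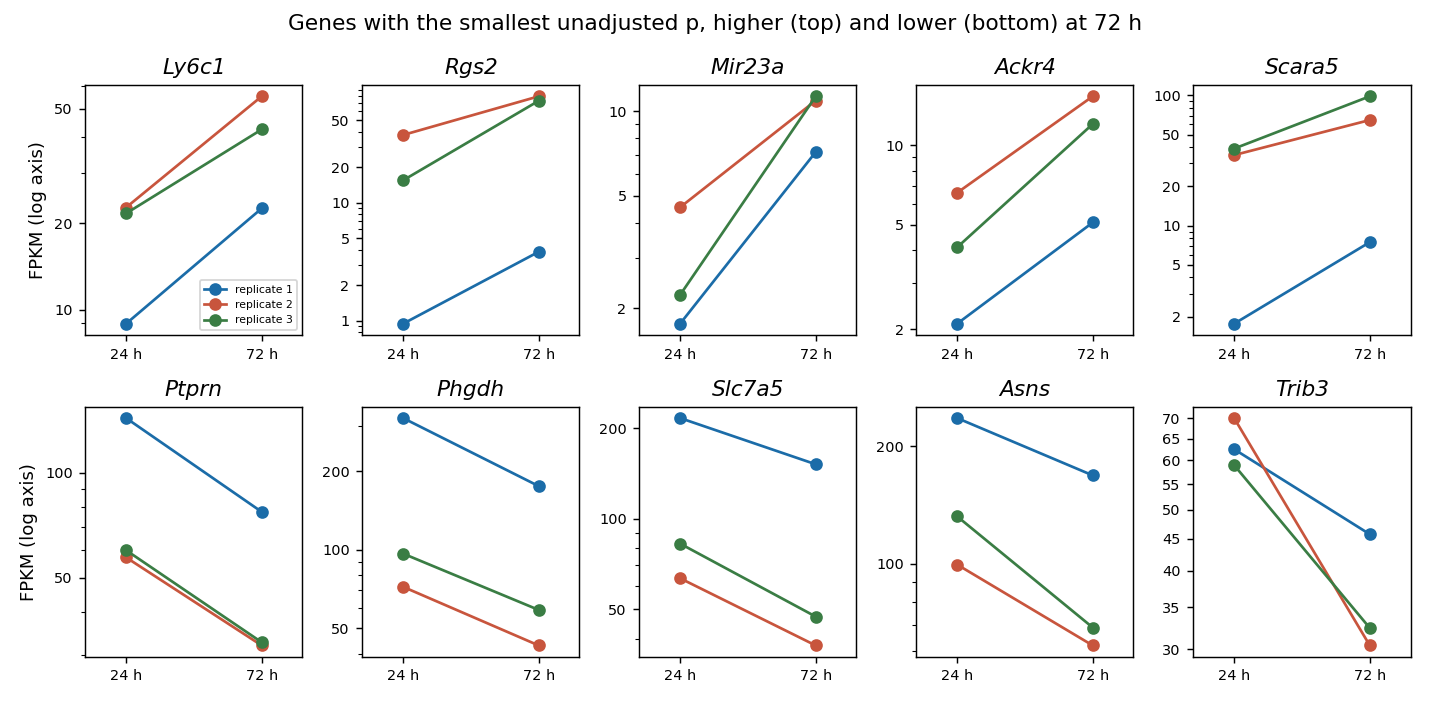
FPKM (log axes) at 24 h and 72 h of the 5 genes with the smallest unadjusted p that are higher at 72 h (top row) and the 5 that are lower (bottom row), 1 line per replicate. They were taken from genes with an established name, a mean FPKM of at least 5 and the same direction in all pairs. Lines run in the same direction within each panel because genes were chosen for this. The levels of replicate 1 lie below the others for Scara5 and above them for Phgdh.

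ATF4 is the factor that cells make when amino acids run short or protein folding is disturbed, and it turns on enzymes of amino acid synthesis, transporters and tRNA charging. Of 24 tested genes of this group, 24 had a log2 fold change below 0, 14 were lower in 3 of 3 pairs against a background of 14.6%, and 13 were lower at an unadjusted p under 0.05. The median log2 fold change was -0.50, with medians of -0.34, -0.41 and -0.69 in pairs 1, 2 and 3, against 0.01 over all genes. Chac1, which degrades glutathione, had 21.5, 5.95 and 7.21 FPKM at 24 h and 11.2, 2.23 and 4.49 FPKM at 72 h, a log2 fold change of -0.93 ± 0.18 (SE). Psat1, which follows Phgdh in serine synthesis, had 215, 42.7 and 65.2 FPKM at 24 h and 127, 33.5 and 34.2 FPKM at 72 h. Both genes were lower at 72 h in every pair. The mitochondrial folate enzymes Mthfd2 and Shmt2 had log2 fold changes of -0.58 ± 0.11 and -0.51 ± 0.10 (SE). The transcript of Atf4 itself, a factor regulated mainly in translation, had a log2 fold change of -0.01 ± 0.10 (SE), and that of the stress factor Ddit3 was -0.12 ± 0.14 (SE). The 20 genes of ER chaperones and the unfolded protein response, an arm of the same stress response, had a median of -0.02 with 0 members at an unadjusted p under 0.05 in either direction.

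The composite site of ATF4 with a C/EBP partner reads TGATGNAA, and the promoter windows of the ATF4 genes were searched for it. Within 250 bases before to 50 bases after the RefSeq start (GRCm38.p6), either strand, it was present in 7 of the 21 members with a window (33.3%), namely Asns, Chac1, Trib3, Pycr1, Slc7a11, Nupr1 and Vldlr, and in 257 of the 9436 tested genes with a window (2.72%). The windows of Asns (chr6:7693210-7693272, minus strand) and Chac1 (chr2:119351009-119351241, plus strand) are shown from shortly before the match up to the base before the start, with the match in capitals, which in Chac1 lies on the opposite strand. A match is a description of these letters and not a measured binding site. The list was made of ATF4 targets, so a share above that of all genes describes the list and not its change over time. The same holds for the lists searched for other motifs below. Phgdh, Slc7a5 and Psat1 were not among the members with a match, and what lowered these genes was not tested.
Asns: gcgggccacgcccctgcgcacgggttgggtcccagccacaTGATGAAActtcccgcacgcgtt
Chac1: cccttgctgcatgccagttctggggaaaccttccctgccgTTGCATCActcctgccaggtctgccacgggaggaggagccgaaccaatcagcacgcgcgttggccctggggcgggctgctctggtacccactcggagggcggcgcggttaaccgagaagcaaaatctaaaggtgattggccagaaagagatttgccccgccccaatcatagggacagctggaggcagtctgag

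Ribosomal protein genes were lower at 72 h by small steps that the pairs shared. Of 45 tested cytosolic members, 43 had a log2 fold change below 0, 42 were lower in 3 of 3 pairs against a background of 14.6%, and 35 were lower at an unadjusted p under 0.05. Their summed level was 31853, 28690 and 24365 FPKM at 24 h and 25393, 21940 and 20390 FPKM at 72 h in replicates 1, 2 and 3. The sum was lower at 72 h in every pair, but the 24 h value of replicate 3 lay between the 72 h values of the other replicates. The differences were small in size, with a median log2 fold change of -0.30 and medians of -0.32, -0.38 and -0.24 by pair. Rps2 of the small subunit had 2172, 1328 and 1267 FPKM at 24 h and 1566, 955 and 913 FPKM at 72 h, a log2 fold change of -0.47 ± 0.10 (SE). Rplp0 of the ribosomal stalk had 2055, 1996 and 1655 FPKM at 24 h and 1623, 1357 and 1384 FPKM at 72 h, a log2 fold change of -0.38 ± 0.12 (SE). The exceptions were Rpl24, which stayed at or below 1.61 FPKM in every library, and Rps27a, which was at 254 FPKM in the 72 h library of replicate 1 and between 69.6 and 101 FPKM in the other 5. Many ribosomal protein genes have near-identical processed pseudogenes, so the share of their fragments that was counted is uncertain. Respiratory chain genes had a median of -0.05 over 24 members, with 0 at an unadjusted p under 0.05.

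Genes of cell division were lower at 72 h, and unequally so between pairs. Of 35 tested genes of mitosis and G2/M, 34 had a log2 fold change below 0, 26 were lower in 3 of 3 pairs against a background of 14.6%, and 22 were lower at an unadjusted p under 0.05. Their median log2 fold change was -0.76, with -0.47 in pair 1, -0.30 in pair 2 and -1.54 in pair 3. Aurka, a kinase of the spindle poles, had 33.9, 4.02 and 8.66 FPKM at 24 h and 18.9, 2.04 and 2.29 FPKM at 72 h, a log2 fold change of -1.12 ± 0.22 (SE) with an adjusted p of 0.371. Ccna2, cyclin A2, had 56.1, 7.68 and 16.6 FPKM at 24 h and 38.4, 4.81 and 5.39 FPKM at 72 h, a log2 fold change of -0.90 ± 0.21 (SE). Both were lower in all 3 pairs, while the proliferation marker Mki67 was lower in pairs 2 and 3 only, with 22.6, 6.33 and 11.8 FPKM at 24 h and 23.9, 4.27 and 3.84 FPKM at 72 h. The mitotic kinase Plk1 and cyclin B1 (Ccnb1) had log2 fold changes of -0.82 ± 0.27 and -0.88 ± 0.29 (SE). Pttg1, securin, was the 1 member above 0, at 0.01 ± 0.15 (SE).

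Genes of DNA replication and the G1/S step were less uniform. Of 33 tested members, 30 had a log2 fold change below 0, but only 5 were lower in 3 of 3 pairs, close to the background of 14.6%. At an unadjusted p under 0.05 5 were lower, against 4.44% of all genes. The medians were -0.59 in pair 1, 0.15 in pair 2 and -0.57 in pair 3, so pair 2 had the opposite sign. Rrm1, a subunit of ribonucleotide reductase, had 206, 66.8 and 89.3 FPKM at 24 h and 129, 53.1 and 67.1 FPKM at 72 h and was lower in every pair, by -0.47 ± 0.11 (SE) on the log2 scale. Pcna, the replication clamp, had 155, 57.9 and 55.8 FPKM at 24 h and 84.3, 66.4 and 53.0 FPKM at 72 h, and was lower mainly in replicate 1. Among 24 growth arrest genes 4 were higher and 1 was lower at an unadjusted p under 0.05, against 4.47% and 4.44% of all genes. In 3 of 3 pairs 7 were higher and 4 lower, against backgrounds of 15.7% and 14.6%. Their median was 0.08, with 0.22, 0.01 and 0.11 by pair, and single members went either way. Gas1, a membrane protein of arrested fibroblasts, had 12.3, 256 and 139 FPKM at 24 h and 25.2, 370.3 and 229.7 FPKM at 72 h, a log2 fold change of 0.75 ± 0.12 (SE). The antiproliferative Btg2 had one of 1.00 ± 0.20 (SE), while the CDK inhibitor Cdkn1a was at 0.03 ± 0.13 (SE) and Cdkn2a, another CDK inhibitor that accumulates with passage, at -0.59 ± 0.14 (SE). Fewer dividing cells and less mitotic RNA per cell cannot be told apart in these bulk libraries.

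Mitotic promoters carry the cell cycle homology element TTTGAA and the box CCAAT, bound by the DREAM complex and by NF-Y, and the mitosis genes were searched for both. Within the same RefSeq windows, either strand, TTTGAA was present in 19 of the 28 members with a window (67.9%) and in 1315 of all 9436 (13.9%). CCAAT was present in 19 of the 28 (67.9%) and in 4069 of all 9436 (43.1%). The list was made of mitosis genes, so these shares describe the list and not its change over time. The windows of Cdc20 (chr4:118437344-118437436, minus strand) and Aurka (chr2:172370571-172370661, minus strand) are shown from shortly before the first match up to the base before the start, with the matches in capitals, and the matches do not overlap each other. Cdc20 holds both kinds of match in this stretch and Aurka 2 CCAAT matches.
Cdc20: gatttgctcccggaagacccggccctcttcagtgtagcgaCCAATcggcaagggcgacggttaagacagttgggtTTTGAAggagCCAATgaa
Aurka: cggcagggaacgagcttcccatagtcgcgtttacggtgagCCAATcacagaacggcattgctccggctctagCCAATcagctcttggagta
Cdc20, which activates the anaphase-promoting complex, had 99.0, 10.0 and 26.5 FPKM at 24 h and 63.7, 11.2 and 7.96 FPKM at 72 h.

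Immediate early genes, which encode short-lived transcription factors and feedback regulators that answer serum, stretch and stress within minutes, leaned the other way. Of 24 tested members, 21 had a log2 fold change above 0, 14 were higher in 3 of 3 pairs against a background of 15.7%, and 14 were higher at an unadjusted p under 0.05. The median was 0.49, with 0.52, 0.17 and 0.64 by pair. The study detached PSC with trypsin and centrifuged them before lysis, and the part of this handling in these values was not tested. Fos had 8.82, 551 and 345 FPKM at 24 h and 108, 682 and 626 FPKM at 72 h, so the values of replicate 1 were far below the others and its step was by far the largest. The fitted log2 fold change of Fos was 1.57 ± 0.56 (SE) with an adjusted p of 0.501. Junb, its AP-1 partner, had 109.8, 899.8 and 457 FPKM at 24 h and 229.6, 1002 and 988 FPKM at 72 h. More even steps were seen for Ier2, with a log2 fold change of 0.52 ± 0.12 (SE), and for Klf2, a zinc finger factor, with 0.46 ± 0.10 (SE). Myc, Fosl1 and Dusp6, which answer growth factors through ERK, had log2 fold changes of 0.05 ± 0.14, -0.08 ± 0.20 and 0.44 ± 0.24 (SE). The cAMP response element TGACGTCA was present in the window of 1 of the 19 members with one (5.26%), against 344 of 9436 genes (3.65%), and the shorter TGACG, which it contains, in 11 of 19 (57.9%) against 3415 of 9436 (36.2%).

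Sterol synthesis genes, which SREBP2 turns on when cells are short of cholesterol, were slightly higher at 72 h. Of 25 tested members, 23 had a log2 fold change above 0, 15 were higher in 3 of 3 pairs against a background of 15.7%, and 10 were higher at an unadjusted p under 0.05. The median was 0.30, with 0.08, 0.32 and 0.43 by pair. Idi1, an isomerase of the isoprenoid steps, had 3.19, 12.3 and 13.4 FPKM at 24 h and 6.31, 14.1 and 23.9 FPKM at 72 h, a log2 fold change of 0.63 ± 0.18 (SE). The synthase Hmgcs1 was higher in every pair, with a log2 fold change of 0.32 ± 0.10 (SE). A core of the sterol response element, TCACNCCA, was present in the window of 3 of 17 members (17.6%) and of 421 of 9436 genes (4.46%). Fatty acid synthesis genes had a median of 0.14 over 17 members and medians of both signs across pairs.

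Contractile genes had medians below 0 in pairs 2 and 3 but not in pair 1. Of 18 tested members, 16 had a log2 fold change below 0, 8 were lower in 3 of 3 pairs against a background of 14.6%, and 5 were lower at an unadjusted p under 0.05. The medians by pair were 0.02, -0.34 and -0.31, and the median over the fitted values was -0.20. Acta2, the marker of activated PSC (chr19:34241090-34255590), had 5963, 824 and 1509 FPKM at 24 h and 4537, 476 and 895 FPKM at 72 h. It was lower in every pair, with a log2 fold change of -0.65 ± 0.13 (SE) and an adjusted p of 0.371, while its level differed more between replicates than between times. Tropomyosin 2 (Tpm2) was lower in every pair, by -0.41 ± 0.12 (SE) on the log2 scale. Calponin (Cnn1) had 1064, 167 and 291 FPKM at 24 h and 1076, 75.3 and 176 FPKM at 72 h, and γ-smooth muscle actin (Actg2) had 2044, 172 and 372 FPKM at 24 h and 2356, 82.6 and 179.8 FPKM at 72 h. In these 2 genes replicate 1 went the other way from replicates 2 and 3.

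The lists of matrix genes differed in direction. The 26 fibrillar collagen and matrix protein genes had a median log2 fold change of 0.02, made of 0.51 in pair 1, -0.35 in pair 2 and -0.07 in pair 3, and 1 member in each direction was at an unadjusted p under 0.05. Col1a1 had 7452, 9305 and 9033 FPKM at 24 h and 8471, 5754 and 6571 FPKM at 72 h, higher in replicate 1 and lower in the other 2. Col3a1 had 2790.0, 14618 and 11546 FPKM at 24 h and 4666, 14136 and 13729.6 FPKM at 72 h, and the libraries of the 2 times overlapped. The collagen modifying enzymes, the basement membrane genes and the matrix proteases with their inhibitors had medians of -0.08, 0.12 and 0.11. At an unadjusted p under 0.05 there were 2 higher and 4 lower of 19 collagen modifying enzymes, 1 higher and 1 lower of 16 basement membrane genes, and 4 higher and 0 lower of 18 protease and inhibitor genes. Higher in 3 of 3 pairs were 8 of the 16 basement membrane genes, with medians of 0.28, 0.02 and 0.06 by pair, and 7 of the 18 protease and inhibitor genes, with medians of 0.03, 0.08 and 0.24, against a background of 15.7%. The proteoglycans and their enzymes had a median of 0.04 over 24 members, 3 of them higher and 4 lower at that level. YAP target genes, read-outs of stiffness and spreading, had a median of -0.01 over 18 members, with 0 members at an unadjusted p under 0.05.

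The 4 matrix genes that were also chosen for RT-PCR had fitted log2 fold changes close to 0, within wide limits. Versican (Vcan), a large chondroitin sulfate proteoglycan, had 24.3, 34.9 and 32.4 FPKM at 24 h and 38.5, 28.7 and 21.5 FPKM at 72 h, higher in replicate 1 and lower in the other 2. Its log2 fold change was -0.07 with a 95% interval from -0.62 to 0.48. Chst11, which sulfates chondroitin, had 8.03, 8.75 and 9.12 FPKM at 24 h and 6.25, 7.78 and 8.14 FPKM at 72 h, lower in each pair, with a log2 fold change of -0.22 and an interval from -0.57 to 0.14. Syndecan 4 (Sdc4), a heparan sulfate proteoglycan of the cell surface, had a log2 fold change of 0.07 with an interval from -0.35 to 0.49. Fibronectin (Fn1) was at 0.10 with an interval from -0.33 to 0.53. Changes within these intervals are not excluded by the 3 pairs.

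Genes of the inflammatory secretome were higher at 72 h mostly in replicate 3. Of 20 tested cytokine and chemokine genes of inflammatory cancer-associated fibroblasts (iCAF), 7 were higher at an unadjusted p under 0.05 and 6 were higher in 3 of 3 pairs, against a background of 15.7%. The medians were 0 in pair 1, 0.19 in pair 2 and 1.01 in pair 3. Ccl11, eotaxin, had 0.488, 19.6 and 2.16 FPKM at 24 h and 3.39, 44.1 and 14.5 FPKM at 72 h, a log2 fold change of 1.87 ± 0.26 (SE) with an adjusted p of 0.232. Il6 had 6.56, 127 and 31.0 FPKM at 24 h and 14.9, 151 and 127 FPKM at 72 h, a log2 fold change of 1.13 ± 0.30 (SE). Cxcl1, a neutrophil chemokine, had 2.93, 121 and 32.1 FPKM at 24 h and 18.5, 140.2 and 97.6 FPKM at 72 h. In these 3 genes the 24 h level of replicate 2 exceeded the 72 h level of replicate 1. Csf1, the growth factor of macrophages, was slightly lower in every pair, with 2025, 914 and 1109 FPKM at 24 h and 1437, 772 and 1051 FPKM at 72 h.

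Complement genes had a median of 0.37 over 17 members, with -0.14 in pair 1, 0.51 in pair 2 and 0.73 in pair 3. Of them, 5 were higher at an unadjusted p under 0.05, against 4.47% of all genes. In 3 of 3 pairs 6 were higher and 1 was lower, against backgrounds of 15.7% and 14.6%. C4b had 13.8, 242 and 131 FPKM at 24 h and 17.7, 327 and 229.5 FPKM at 72 h, a log2 fold change of 0.53 ± 0.12 (SE). C3, the central component, had 253, 2426 and 944 FPKM at 24 h and 167, 5124 and 2307 FPKM at 72 h, lower in replicate 1 and higher in the other 2. Among the lists of other cell types tested on more than 3 members, the macrophage markers had the largest median. Of 16 tested macrophage markers, 16 had a fitted log2 fold change above 0, with medians of -0.27, 1.29 and 1.24 by pair. At an unadjusted p under 0.05 6 were higher, against 4.47% of all genes. In 3 of 3 pairs 4 were higher, against a background of 15.7%. Lyz2, lysozyme of myeloid cells, had 31.7, 369 and 52.0 FPKM at 24 h and 29.8, 915 and 126 FPKM at 72 h. Tyrobp, an adaptor of myeloid receptors, had 0.533, 24.5 and 3.66 FPKM at 24 h and 1.63, 60.8 and 6.77 FPKM at 72 h. The complement list shares C1qa with the macrophage list, and properdin (Cfp) and C3ar1 are also made by myeloid cells. The part of the macrophage transcripts in the inflammatory and complement values was not tested, and these markers were at their lowest in replicate 1, where the complement median was below 0. In pair 2 the macrophage median was 1.29 beside an iCAF median of 0.19.

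The pair medians of the adipocyte genes differed in sign, and those of the remaining pathways were of both kinds. The 29 tested adipocyte genes had a median of 0.02, with -0.64 in pair 1, 0.75 in pair 2 and -0.21 in pair 3. Plin1, a coat protein of lipid droplets, had 22.6, 43.1 and 124 FPKM at 24 h and 10.8, 118 and 110.5 FPKM at 72 h. Fabp4, a fatty acid carrier, had 32.0, 73.0 and 172 FPKM at 24 h and 10.5, 151 and 124 FPKM at 72 h. Both were lower in replicates 1 and 3 and higher in replicate 2. G0s2, an inhibitor of lipolysis, was higher in every pair, with a log2 fold change of 0.64 ± 0.11 (SE). The vitamin A handling genes had a median of -0.03 over 15 members while the 3 pair medians lay between 0.06 and 0.09, so that the sign depends on how the median is taken. Glycolysis and hypoxia genes, NRF2 targets, lysosome genes and the TGF-beta and BMP genes had medians between -0.05 and 0.10. Genes of the Wnt and IGF pathways had medians of 0.09 and 0.20, with 4 of 17 and 4 of 14 members higher at an unadjusted p under 0.05 and all pair medians above 0. Interferon-stimulated genes had a median of 0.19 over 27 members, with 0.24, -0.22 and 0.59 by pair. A list of MHC class II genes and other genes of antigen-presenting fibroblasts, Saa3, Slpi and Ctss among them, had a median of 0.31 over 10 members. Its class II genes went both ways. H2-Ab1 had a log2 fold change of -0.10 ± 0.36 (SE) and H2-Eb1, lower in 3 of 3 pairs, one of -0.42 ± 0.28 (SE), and neither exceeded 1.68 FPKM in any library. H2-DMb1, at 6.68 to 11.2 FPKM, was higher in 3 of 3 pairs, with a log2 fold change of 0.37 ± 0.16 (SE). H2-DMa, higher in 2 of 3 pairs, was at 0.41 ± 0.29 (SE). Fewer markers of the other cell types could be tested, and the 5 mesothelial and 6 pericyte and smooth muscle markers tested had medians of 0.11 and 0.19. The 3 tested epithelial markers had a median of 0.69, with 2 at an unadjusted p under 0.05. These were Cela1, an elastase gene, with 5.78, 8.28 and 6.62 FPKM at 24 h and 7.71, 15.5 and 11.9 FPKM at 72 h, and Muc1, a mucin, with 0.410, 1.43 and 0.986 FPKM at 24 h and 1.00, 3.20 and 2.96 FPKM at 72 h.

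**Figure D4:**
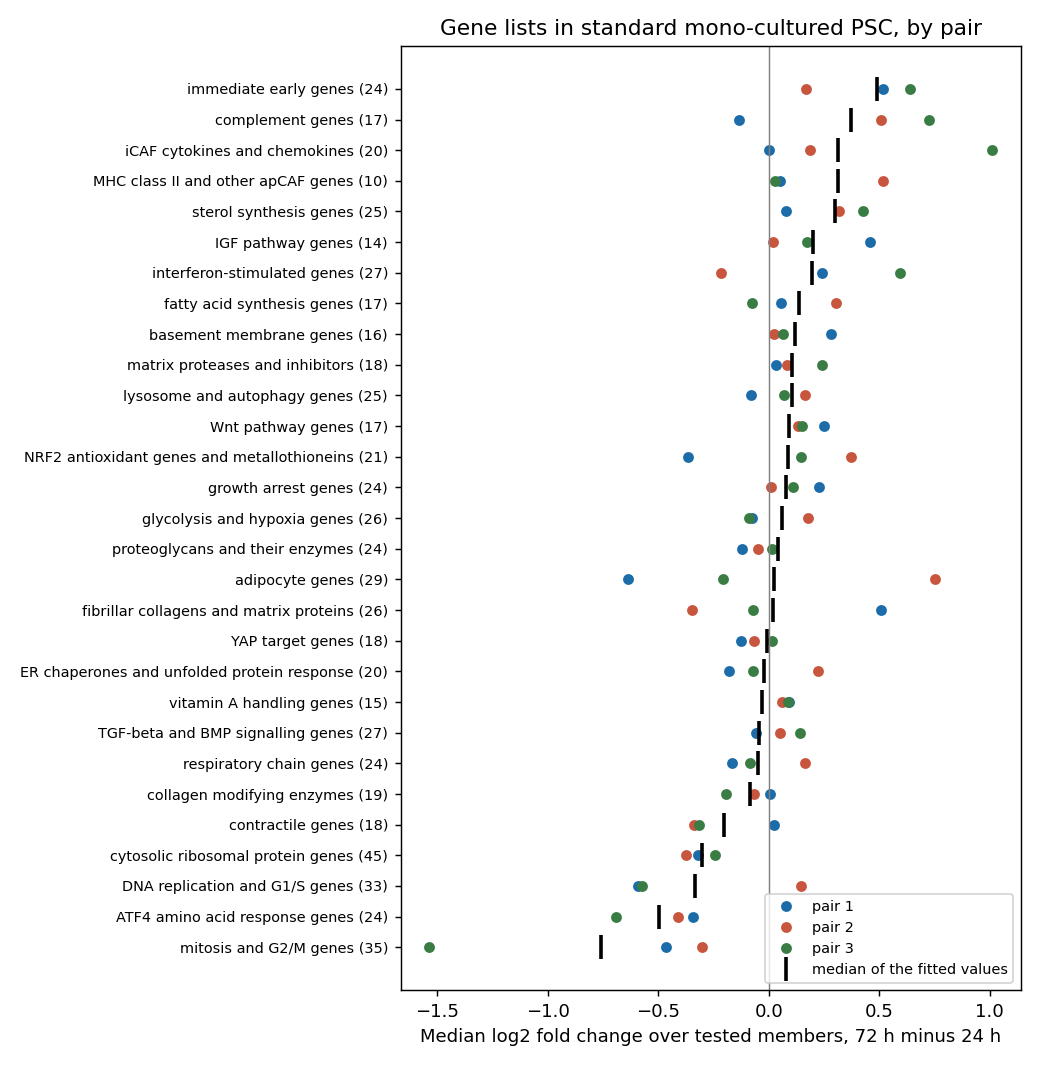
Median log2 fold change (72 h minus 24 h) over the tested members of 29 gene lists in standard mono-cultured PSC, with 1 coloured point per pair, a black bar for the median of the fitted values and the number of tested members in brackets. The 3 pairs lie on the same side of 0 for ribosomal protein, ATF4, mitosis, immediate early and sterol synthesis genes, and on both sides for adipocyte and matrix genes.

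The inverse controls gave a comparison with mono-cultured PSC that share no library with the standard controls. In them 1019 of 13092 genes rose (7.78%) and 974 fell (7.44%) between 24 h and 72 h at an adjusted p under 0.05. Of the 987 called higher there that were also tested in the standard controls, 887 (89.9%) had a log2 fold change above 0 in the standard controls, with a median of 0.25 against 0.76 in the inverse controls. Of the 965 called lower, 918 (95.1%) were below 0 in the standard controls, with a median of -0.28 against -0.73. The inverse medians are raised by the choice of genes on the same values, and over all 12660 genes tested in both the same sign was seen in 71.1%, with a Pearson correlation across genes of 0.52. Genes are not independent replicates, so this is a description of these libraries.

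The difference between the time effects of the 2 sets of controls was tested over their 12 libraries. No gene passed, with 0 of 13817 (0%) at an adjusted p under 0.05, a smallest adjusted p of 0.111 for Plagl1, and 1298 genes at an unadjusted p under 0.05. limma's voom on recovered fragments, an alternative chosen after the data were seen, called 38 genes, of which 33 had a lower value in the standard controls. Among these 38 were the lipid genes Acsl1, Scd1, Acaca, Fasn, Pnpla2 and Gpam. Acsl1, which activates fatty acids for storage, had a log2 fold change of -0.04 ± 0.39 (SE) in the standard controls and of 2.24 in the inverse controls, a difference of -2.28 with an adjusted p of 0.226 in limma on log2(FPKM + 0.5). The adipocyte list had medians of -0.64, 0.75 and -0.21 by pair in the standard controls and of 1.74, 0.85 and 1.11 in the inverse controls, where 24 of 29 members rose.

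Of the 29 pathway lists, 26 had a median of the same sign in both sets of controls. In size, 24 had a smaller median in the standard controls. Over all genes tested, the median absolute log2 fold change was 0.14 in the standard and 0.26 in the inverse controls. Smaller sizes in the standard controls were thus not particular to the lists. The ribosomal protein genes had medians of -0.30 in standard and -0.73 in inverse controls, where 44 of 45 fell. Mitosis genes had -0.76 and -1.39, with 34 of 35 falling in the inverse controls, and contractile genes had -0.20 and -0.80, with 12 of 18 falling. The ATF4 genes were alike in size, with -0.50 in standard and -0.48 in inverse controls, and the immediate early genes were larger in the standard controls, with 0.49 against 0.21. Single genes went either way. Acta2 had a log2 fold change of -0.65 in standard and -1.43 in inverse controls, a difference of 0.79 with an adjusted p of 0.329. Ly6c1 was at 1.17 in standard and 0.68 in inverse controls, and Klf2 at 0.46 and -0.40. Libraries of the inverse model were built from 120 ng of RNA and those of the standard model from 450 ng, and the inverse controls were in advanced DMEM/F-12 from seeding on, with no change at time zero. The culture model cannot be told apart from the RNA input and the medium change.

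**Figure D5:**
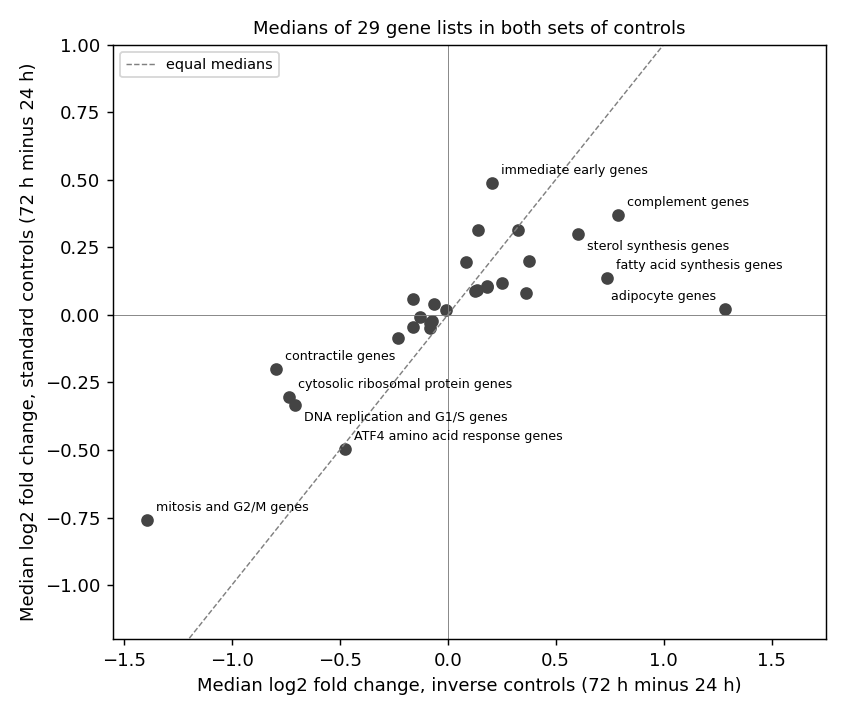
Median log2 fold change (72 h minus 24 h) of 29 gene lists in the inverse controls (x axis) and in the standard controls (y axis), with a dashed line of equal medians. Mitosis, ribosomal protein and contractile genes lie between the dashed line and 0, ATF4 genes lie on the line, and adipocyte genes are at 1.29 in the inverse and 0.02 in the standard controls.

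PSC in standard co-culture with KPC cells gave the other side of the same design. Between 24 h and 72 h, 0 of 12805 genes (0%) passed in the co-cultured PSC, with 1597 at an unadjusted p under 0.05. The difference of the time effects, control minus co-culture, was tested over 12 libraries and was called for 0 of 13694 genes (0%). There were 379 genes (2.77%) at an unadjusted p under 0.05 and 0 calls by voom. This fit shared 1 term per replicate number between control and co-culture and did not model the pairs within each condition. Differences between the conditions within a replicate number stayed in its error, so 0 calls do not show that the time effects were alike. Medians in co-culture were -0.78 for mitosis genes, with 0.22 in its pair 2, -0.21 for ribosomal protein genes, 0.41 for sterol synthesis genes and 0.36 for immediate early genes, each of the same sign as in the controls. ATF4 genes had a median of -0.17 in co-culture, with 0.15 in its pair 2, against -0.50 in the controls. Glycolysis and hypoxia genes had a median of 0.42 in co-culture, positive in its 3 pairs, against 0.06 in the controls, and the median of the difference over these genes was -0.40. Asns had a log2 fold change of -0.33 in co-culture and of -0.70 in the controls, and Il6 of 1.73 and 1.13, neither of which passed in either fit.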

How the data were processed

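The authors isolated polyA RNA, and the labels' processing notes name CASAVA, HISAT2 2.0.5, featureCounts 1.5.0-p3 and DESeq2 1.20.0, with the builds GRCm38 and mm10. Per the study's methods, reads were aligned to GRCm38.p6 and counted with default settings, which disregard strand. The authors deposited FPKM of 53801 genes in 24 libraries, relative to gene length and library total. 53706 genes matched GENCODE M21. Whole fragments were recovered for 28840 of 28892 genes above 0 (tolerance 0.02 fragments).

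Groups came from GEO's labels. limma 3.58.1 (R 4.3.3) tested log2(FPKM + 0.5) of genes above 1 FPKM in at least 3 libraries, two-sided, with intensity trend, replicate number as a block and Benjamini-Hochberg adjustment. Deviations of same-numbered libraries from their group means correlated at 0.77, 0.69 and 0.48 over genes, which meets the rule for pairing (over 0.1 in every pair), although no source states a shared isolation. Replicates 2 and 3 were less well separated, as 24 h replicate 2 with 72 h replicate 3 gave 0.47 and the reverse 0.21. Intervals are 95% from limma.

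The members and gene lists were chosen with earlier results of these data known. Genes are named where marked as key in the lists, among up to 4 further members of each pathway list with the smallest p, as RT-PCR genes of the study, or, as no gene passed, as the 5 per direction with the smallest p, a mean FPKM of at least 5, an established name and the same direction in all pairs. Clec3b, Gm22933, genes called without replicate 1 or by voom, Atf4, Cdc20, Pttg1, Rpl24, Rps27a, Acsl1, Tyrobp, C3ar1, Lrat, Cela1, Muc1, H2-Ab1, H2-Eb1 and the members listed for a promoter match were singled out after their values were seen. Tests were checked on simulated data. Alternatives were other pseudocounts, filters, scalings, blocks, thresholds and libraries, voom, and each replicate left out. Promoter windows came from RefSeq (GRCm38.p6). Python 3.11.15 drew the plots. A gene that the rule names is not reported here.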

Additional observations from a re-analysis of the deposited data

How the results depend on the processing

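In the time effect of the standard controls, no gene was called with the replicate block or with no replicate block. The no replicate block fit left 127 genes at an unadjusted p under 0.05 in place of 1155. A pseudocount of 0.1 called 1 gene, Clec3b, with a log2 fold change of 2.69, which was at 0, 16.8 and 7.96 FPKM at 24 h and 0.587, 100.1 and 53.4 FPKM at 72 h. Leaving out each replicate in turn gave 0 to 68 called genes and 513 to 1653 at an unadjusted p under 0.05, the highest of both without replicate 1. For the difference to the inverse controls, leaving out a replicate gave 0 to 16 called genes and 770 to 1857 at an unadjusted p under 0.05, the 16 without replicate 2. No replicate block left 389 there in place of 1298, and voom called 38. For the difference to standard co-culture, leaving out a replicate gave 0 called genes and 224 to 586 at an unadjusted p under 0.05 in place of 379. Its other departures were 141 with no replicate block, 3 called and 831 at an unadjusted p with no filter on low values, 231 with a mean FPKM above 5, and 1 called with no intensity trend. That gene, Gm22933, and the other 2 of the 3 had a mean below 0.394 FPKM. The median of the vitamin A handling genes was 0.0103 with voom and -0.03 in the fit reported. Of 504 list medians under alternatives 486 moved by less than the SD between pairs, and of 3592 values of 260 genes 52 turned their sign, at an unadjusted p of 0.05 or more. Genes among these 260 passed the test under an alternative 19 times, each time without replicate 1. In short or low genes few fragments limit the precision, as in Mir23a.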
